A study of Homo sapiens and Mus musculus with 13 samples.

Results

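RNA:DNA hybrids were described at 6 human genes that make abundant noncoding RNAs, MALAT1, NEAT1, TUG1, SNHG1, GAS5 and SNHG5, and at the neighbouring mouse genes Malat1 and Neat1. Members were the listed peaks that reach within 5 kb of these genes, and there were 116 of them among the 454693 peaks of the 9 lists, 96 in the human and 20 in the mouse lists. A peak counted as a member by its position alone. Every one of the 6 human genes had a peak in its window in every list except that of RNase H, where TUG1 alone had one. More of the gene span was covered in each of the 3 long noncoding RNA genes than in any of the 3 snoRNA host genes in DRIPc-seq, with RNase A, with digest A and in K562, but not with digest B. Cover of the long genes was low in places, as in TUG1, with 16.7% after RNase A and 30.0% in K562. After RNase A the margin was narrow, as SNHG1 had 15.1%. Over the whole windows, flanks included, the groups of genes were parted in DRIPc-seq alone.

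Hybrids were mapped in established cell lines: NT2, human pluripotent cells from a testicular embryonal carcinoma, K562, a human leukaemia line with erythroid and myeloid features, the mouse embryonic stem cell line E14 and the mouse fibroblast line 3T3. For DRIP-seq, an antibody to RNA:DNA hybrids pulls down fragments of enzyme-cut DNA, and reads from that DNA do not tell which strand the RNA came from. For DRIPc-seq, reads come from the RNA of the same pull-down, and peaks are therefore stranded. NT2 had 5 lists: DRIPc-seq (1 list for 2 samples), and DRIP-seq after RNase H, after RNase A, untreated after enzyme mix A and untreated after enzyme mix B. The others were DRIP-seq of K562 and E14 and both assays in 3T3. Mix A held HindIII, EcoRI, BsrGI, XbaI and SspI and was used for every list but one. Mix B held BamHI, NcoI, ApaL1, NheI and PvuII. Digest A and digest B stand for the untreated NT2 DRIP-seq lists of these mixes. The labels name no genetic change in any of the lines. The name of the 3T3 DRIPc-seq list mentions RNase A while the labels name no RNase for it, so its treatment is not known.

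An R-loop forms when an RNA pairs with the DNA strand it was copied from and leaves the other DNA strand single. Such hybrids are known to occur near the start of genes with CpG-rich promoters, where the RNA is rich in G, and near the end of genes. RNase H destroys the RNA of a hybrid, so a library made after it is a control for the pull-down. RNase A cuts RNA that is not in a hybrid under high salt. MALAT1 is a nuclear RNA of splicing speckles, and NEAT1 is the RNA scaffold of paraspeckles, made as a short and a long form from the same start. TUG1 is a conserved noncoding RNA of the nucleus and cytoplasm. SNHG1, GAS5 and SNHG5 are host genes, whose introns release small nucleolar RNAs that guide the modification of ribosomal RNA, and whose spliced RNA is mostly short-lived.

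The members differ in size, position and neighbours. MALAT1 (8.71 kb, chr11:65265233-65273940, plus strand), NEAT1 (22.74 kb, chr11:65190269-65213011, plus strand) and TUG1 (9.75 kb, chr22:31365634-31375381, plus strand) are the long genes. SNHG1 (3.93 kb, chr11:62619460-62623386), GAS5 (4.09 kb, chr1:173833038-173837125) and SNHG5 (1.73 kb, chr6:86386725-86388451) lie on the minus strand, all on hg19. In the RefSeq gene table, 9 snoRNA genes lie inside SNHG1, 11 inside GAS5 and 2 inside SNHG5. The table places SLC3A2 beside the start of SNHG1, ZBTB37 beside that of GAS5 and MORC2 beside that of TUG1, each on the strand opposite to its neighbour. DRIP-seq has no strand, so a peak between such starts cannot be assigned to either gene.

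The sequence at 4 of the starts is shown because peaks were listed at or beside them. Each run holds 300 bases of RefSeq on GRCh38.p14, 250 before the annotated start and, in capitals, the first 50 transcribed bases. They were matched by symbol, since peak positions are on hg19, and 5 of the 6 genes had an entry. GAS5 is left out because the RefSeq gene is 1057 bp longer than the span used here. The RefSeq gene is 383 bp longer for TUG1 and 71 bp longer for MALAT1, 19 bp shorter for SNHG1 and equal for SNHG5.
MALAT1, chr11:65497488-65497787, plus strand: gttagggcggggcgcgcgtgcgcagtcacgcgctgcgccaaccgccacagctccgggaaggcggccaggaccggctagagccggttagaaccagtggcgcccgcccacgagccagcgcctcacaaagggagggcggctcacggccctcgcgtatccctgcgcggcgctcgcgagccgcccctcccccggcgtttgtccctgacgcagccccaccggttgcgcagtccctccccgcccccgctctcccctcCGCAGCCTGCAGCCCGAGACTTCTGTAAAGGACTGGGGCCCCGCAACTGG
TUG1, chr22:30969015-30969314, plus strand: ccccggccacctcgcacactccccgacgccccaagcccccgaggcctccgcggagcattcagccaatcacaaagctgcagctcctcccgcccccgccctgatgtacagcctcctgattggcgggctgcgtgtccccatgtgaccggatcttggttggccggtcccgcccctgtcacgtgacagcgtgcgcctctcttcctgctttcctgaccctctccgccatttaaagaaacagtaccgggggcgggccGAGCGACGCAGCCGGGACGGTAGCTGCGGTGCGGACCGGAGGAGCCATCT
SNHG1, chr11:62855836-62856135, minus strand: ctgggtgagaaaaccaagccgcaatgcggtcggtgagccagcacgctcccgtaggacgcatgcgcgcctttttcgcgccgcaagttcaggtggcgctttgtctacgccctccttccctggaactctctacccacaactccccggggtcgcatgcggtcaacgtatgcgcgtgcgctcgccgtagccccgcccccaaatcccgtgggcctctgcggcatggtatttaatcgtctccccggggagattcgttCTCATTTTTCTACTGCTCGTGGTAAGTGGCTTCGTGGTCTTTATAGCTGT
SNHG5, chr6:85678684-85678983, minus strand: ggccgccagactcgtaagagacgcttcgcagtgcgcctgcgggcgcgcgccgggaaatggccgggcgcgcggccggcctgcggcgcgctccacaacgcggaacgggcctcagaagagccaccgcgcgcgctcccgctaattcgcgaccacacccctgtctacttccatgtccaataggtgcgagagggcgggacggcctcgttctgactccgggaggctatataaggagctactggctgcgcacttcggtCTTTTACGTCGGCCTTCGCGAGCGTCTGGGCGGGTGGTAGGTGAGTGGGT
These 4 were richer in CpG than the median of 14 CpG over 35116 such stretches, with 37 in MALAT1, 28 in TUG1, 30 in SNHG1 and 41 in SNHG5. GC content was 73.7% in MALAT1, 67.7% in TUG1, 60.0% in SNHG1 and 67.7% in SNHG5, against a median of 58.7%. Within the 50 capital bases, SNHG5 had 22 G and 10 C, a G-over-C skew of 0.38 that 9.81% of all stretches reached. The skew was 0.22 in TUG1, 0.09 in SNHG1 and -0.03 in MALAT1, against a median of 0.06. The GAS5 entry, which is not printed, lay below all 3 medians, with 5 CpG, a GC content of 37.7% and a skew of 0.00. It stands at the start of a RefSeq gene 1057 bp longer than the GAS5 span used here. It may therefore not describe the start that was used. The SNHG1 stretch shares 277 bases with the one before SLC3A2, and the TUG1 stretch shares 10 with the one before MORC2.

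**Figure D1:**
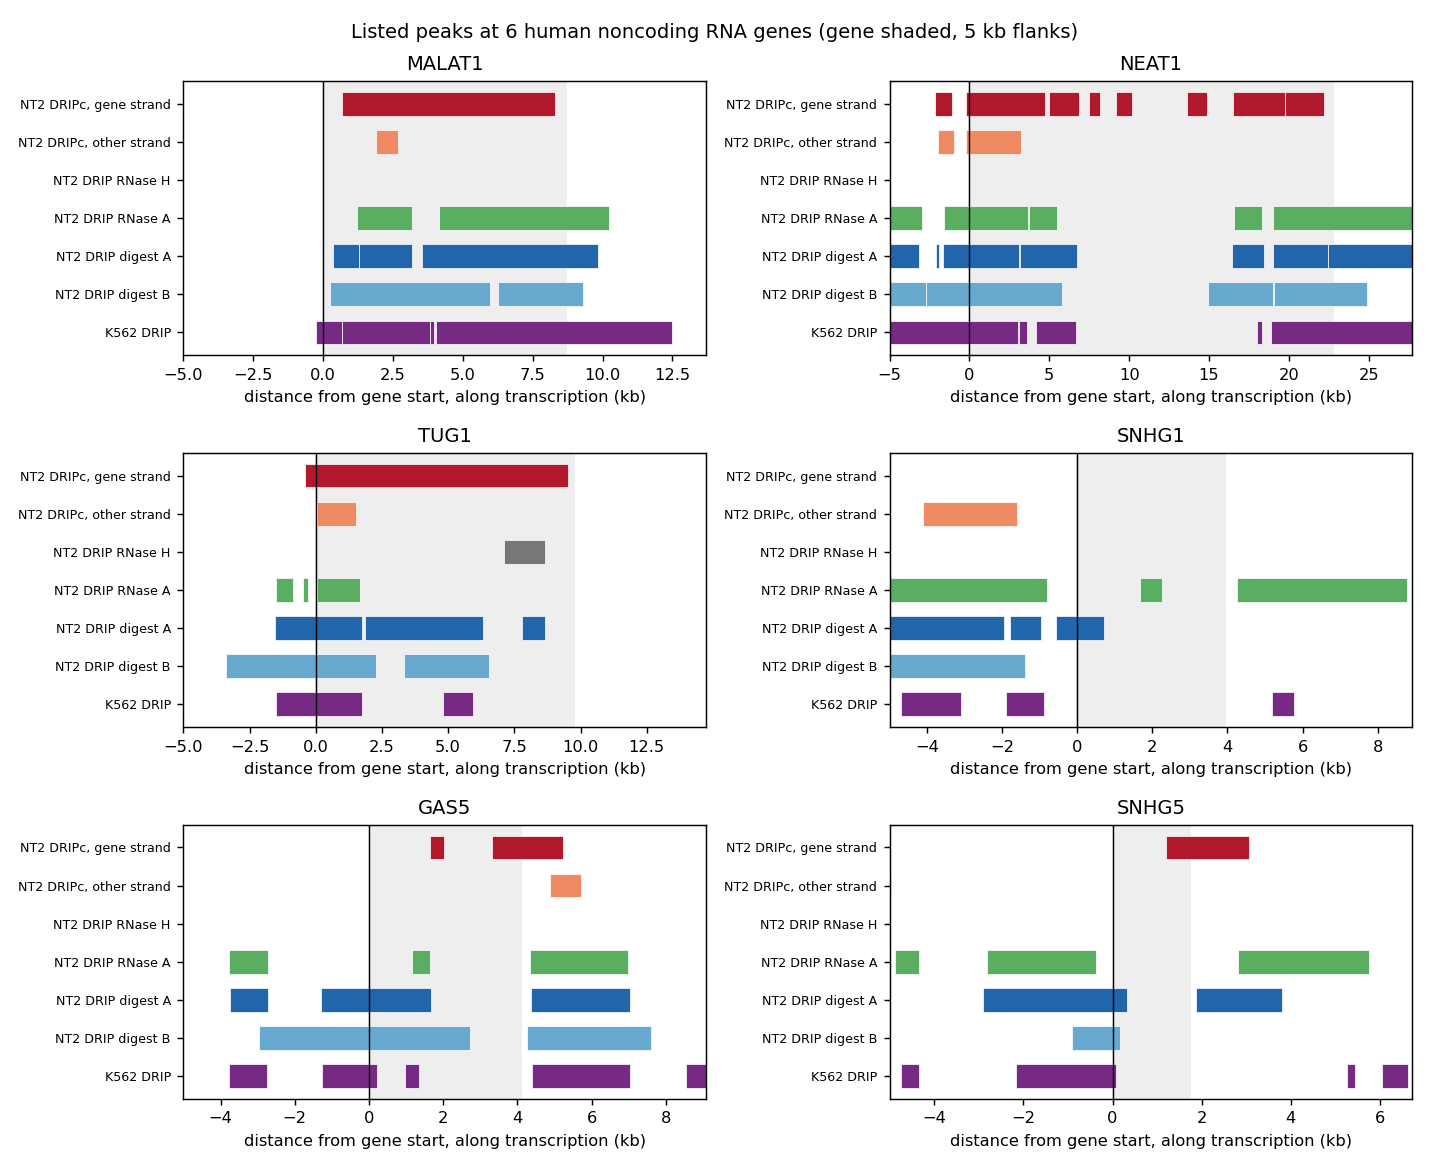
Peaks of each human list along the 6 genes; the horizontal axis is the distance from the gene start in kb along transcription, the gene is shaded and 5 kb flanks are shown. MALAT1 and TUG1 carry a DRIPc peak of the gene strand over most of their length. NEAT1 has DRIP peaks at both ends and none between 7 and 14 kb. The snoRNA hosts have most peaks in the flanks, which also make up most of their windows.

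The first question was whether these genes carry listed hybrids at all, and how this compares with the genome. In DRIPc-seq, with RNase A, with digest A, with digest B and in K562, 6 of 6 windows had a peak. Of 188691 tiles of 16398 bp, the median width of the windows, 25.9% had a DRIPc peak, 19.0% an RNase A peak, 17.9% a digest A peak, 19.4% a digest B peak and 14.4% a K562 peak. With RNase H, 1 of 6 windows had a peak, against 4.02% of tiles. The tiles include stretches without genes, and other genes were not compared. The members were also chosen with earlier results of these data known.

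The 6 windows together span 110.94 kb, and the covered part lay between 37.3% and 50.2% in every list but that of RNase H. Peaks covered 37.3% in DRIPc-seq, 1.42% with RNase H, 44.6% with RNase A, 50.2% with digest A, 46.9% with digest B and 45.0% in K562. Within the gene spans alone the order differed, and DRIPc-seq had the highest share in place of the lowest of the 5 lists other than RNase H. There, 66.9% was covered in DRIPc-seq, 3.09% with RNase H, 39.5% with RNase A, 59.2% with digest A, 59.0% with digest B and 44.0% in K562. Over all tiles, the covered share of bases was 7.23% for DRIPc-seq, 0.496% with RNase H, 4.84% with RNase A, 4.38% with digest A, 6.29% with digest B and 3.76% in K562. The median window was covered to 30.2% in DRIPc-seq, 0% with RNase H, 46.7% with RNase A, 45.4% with digest A, 45.9% with digest B and 36.0% in K562, and the median tile to 0% in all 6 lists. Member peaks of digest A were long: their median was 2962 bp, while that of the whole list was 1206 bp. In K562 the order was the reverse, with medians of 1022 bp for the members and 1360 bp for the list. Each value rests on 1 list, read counts are not in the lists and the depth is unknown, so no comparison has a replicate check and no p-value is given.

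The 3 long noncoding genes were covered more than the snoRNA hosts within the gene itself in DRIPc-seq, with RNase A, with digest A and in K562. With digest A, 91.6% of MALAT1, 72.4% of TUG1 and 54.6% of NEAT1 lay under peaks, against 40.7% of GAS5, 18.5% of SNHG5 and 18.3% of SNHG1. In K562 the shares were 98.9%, 30.0% and 44.8% in MALAT1, TUG1 and NEAT1, and 14.3% in GAS5, 4.63% in SNHG5 and 0% in SNHG1. In DRIPc-seq they were 87.3%, 97.8% and 67.1% in the long genes, and 28.5% in GAS5, 30.0% in SNHG5 and 0% in SNHG1. The groups of genes did not overlap in these 3 lists. With RNase A they were parted narrowly, with 16.7% in TUG1 against 15.1% in SNHG1, where the cover was 1 peak of 592 bp. With digest B they overlapped, as GAS5 reached 66.9% and TUG1 56.3%. With the flanks included, the groups overlapped in every list but DRIPc-seq. With RNase A, 66.9% of the SNHG1 window and 12.5% of the TUG1 window were covered. With digest A, the window of GAS5 had 47.2% and that of TUG1 43.5%. In K562 these were 43.2% and 22.3%. Other genes were not compared. The hosts are also the shorter genes, and the part of length in the difference within the genes was not tested.

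**Figure D2:**
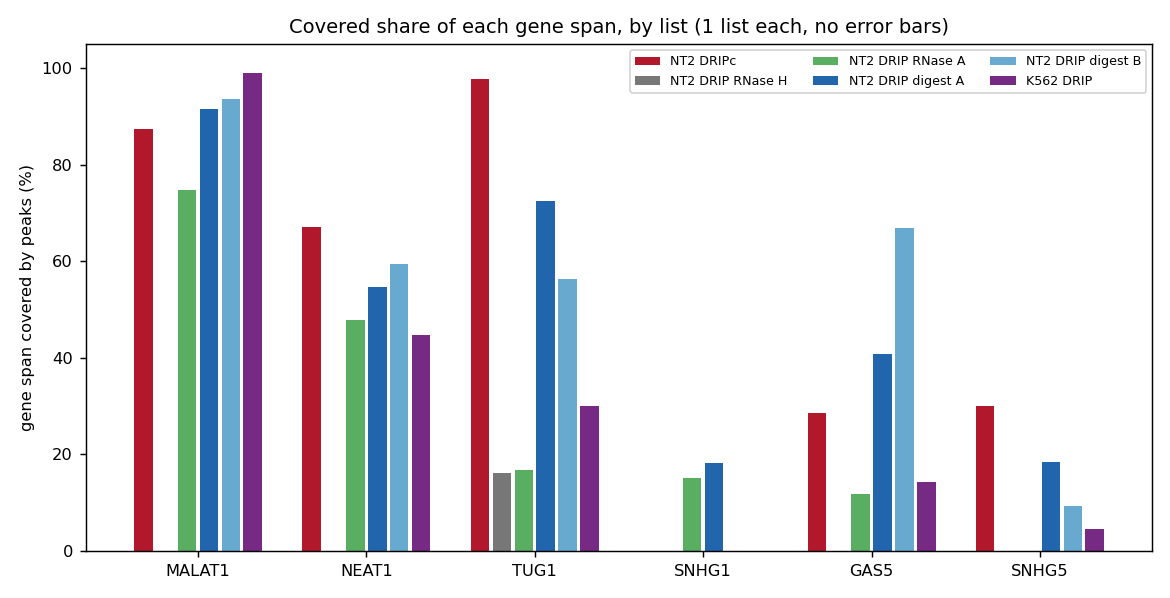
Share of each gene span, in percent, under peaks of each human list; each bar is 1 list, so there are no error bars. MALAT1 stands between 74.8% and 98.9% in every list but RNase H, while SNHG1 does not exceed 18.3% in any list.

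MALAT1 was covered to at least 74.8% of its length in each list but that of RNase H. A single DRIPc peak on the gene strand ran from 0.68 to 8.29 kb past the gene start, and 5.44% of the DRIPc peaks were as long as its 7606 bp or longer. A second DRIPc peak, of 790 bp on the other strand, lay inside it, from 1.90 to 2.69 kb. The RefSeq table lists an antisense gene, TALAM1, that overlaps MALAT1. No RNase H peak was listed in the window, and the nearest one lay 8.18 kb from the gene.

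The DRIP lists of MALAT1 filled the same span in 2 to 4 pieces. With RNase A they ran from 1.22 to 3.17 and from 4.15 to 10.2 kb, so the first kilobase of the gene was not listed. With digest A they ran from 0.37 to 3.19 kb, in pieces parted by 1 bp, and from 3.54 to 9.83 kb, past the end of the gene by 1.13 kb. With digest B they ran from 0.25 to 5.96 and from 6.26 to 9.28 kb. In K562 the pieces reached from 0.26 kb before the start to 12.5 kb, of which 3.76 kb lay past the end. K562 was the single list in which the MALAT1 start itself was covered, and 2751 bp of its cover in the window lay under no peak of DRIPc-seq, RNase A, digest A or digest B. Bases in all 4 lists (RNase A, digest A, digest B and K562) made up 71.3% of the gene, more than in any other member. The other shares were 38.4% for NEAT1, 16.7% for TUG1, 4.11% for GAS5 and 0% for SNHG1 and SNHG5.

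NEAT1 had hybrids at both ends and a middle with no DRIP peak. In the first 7 kb from the start, 94.5% was covered in DRIPc-seq, 77.1% with RNase A, 95.2% with digest A, 82.7% with digest B and 85.9% in K562. From 7 to 14 kb, no base was covered in any DRIP list, while DRIPc peaks covered 28.8%. From 14 kb to the end of the gene at 22.74 kb, the shares were 75.7% in DRIPc-seq, 62.9% with RNase A, 65.7% with digest A, 88.3% with digest B and 47.8% in K562. The limits of these 3 parts were chosen after the peaks were seen.

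The peaks at the NEAT1 start were long in every list but that of RNase H, which had none in the window. The DRIPc peak on the gene strand ran from 0.21 kb upstream of the start to 4.73 kb past it. The DRIP peak over the start measured 5265 bp with RNase A, 4739 bp with digest A, 8512 bp with digest B and 13858 bp in K562. As long or longer were 13.7% of DRIPc peaks, for the peak on the gene strand, and 10.6% of RNase A peaks. With digest A the share was 9.53% and with digest B 9.60%. Only 1.06% of K562 peaks were as long as the K562 peak over the start or longer. It reached 10.8 kb upstream, while upstream peaks that ended 2.95 kb before the start with RNase A and 3.18 kb before it with digest A stood apart from the peak over the start. At the other end, a peak ran past the gene by 7.74 kb with RNase A, 7.78 kb with digest A, 2.17 kb with digest B and 7.91 kb in K562. DRIPc peaks on the gene strand stopped at 22.2 kb, short of the end, so the cover past the end is from DRIP alone.

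DRIPc-seq found both strands at the NEAT1 start. A peak of 3447 bp on the other strand ran from 0.25 kb upstream to 3.20 kb past the start, under the peak of the gene strand. A further pair of peaks, 1 on each strand, lay between 2.18 and 0.96 kb upstream, outside the gene. The 7 DRIPc peaks of the gene strand that touched NEAT1 were between 644 and 4941 bp long. The 3 that lay wholly or partly in the middle part measured 644, 997 and 1256 bp.

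TUG1 was the one gene with a peak after RNase H. The DRIPc peak on its strand covered 97.8% of the gene in 1 piece of 9924 bp, from 0.39 kb upstream of the start to 9.53 kb, and 2.80% of DRIPc peaks were as long or longer. A DRIPc peak of the other strand lay from 56 to 1501 bp past the start. The RNase H peak measured 1576 bp and ran from 7.09 to 8.67 kb. A digest A peak of 850 bp lay wholly inside it, from 7.80 to 8.65 kb, and neither the RNase A, digest B nor K562 list had a peak that touched that digest A peak. Whether the RNase H peak came from hybrids was not tested.

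The start of TUG1 was shared, and the body was less so. With RNase A, 3 short pieces lay between 1.49 kb upstream and 1.69 kb past the start, and nothing was listed beyond, so 16.7% of the gene was covered. With digest A, peaks covered 72.4%, from 1.53 kb upstream of the start to 6.30 kb past it with a short gap, and then the 850 bp piece. With digest B, peaks covered 56.3%, from 3.40 kb upstream to 2.27 kb and from 3.32 to 6.54 kb. In K562, peaks covered 30.0%, from 1.49 kb upstream to 1.76 kb and from 4.80 to 5.96 kb. The peak over the start ended at the same base, 31367395, in the digest A and the K562 list, and began at 31364099 with digest A and at 31364145 in K562. As the printed sequence before this start shares bases with that before MORC2, DRIP-seq cannot assign the peak to TUG1 alone.

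Around the gene starts, digest A and K562 covered more members than DRIPc-seq or RNase A. The start was covered in 2 of 6 genes in DRIPc-seq (NEAT1 and TUG1), in 0 with RNase H, in 1 with RNase A (NEAT1), in 5 with digest A (all but MALAT1), in 4 with digest B (NEAT1, TUG1, GAS5 and SNHG5) and in 5 in K562 (all but SNHG1). A single base was covered in 7.23%, 0.496%, 4.84%, 4.38%, 6.29% and 3.76% of the tiled genome in the same order of lists. With RNase A the nearest peak edge lay 60 bp from the start of TUG1, 369 bp from that of SNHG5, 800 bp from that of SNHG1, 1172 bp from that of GAS5 and 1224 bp from that of MALAT1. Starts are those of the spans used here. The RefSeq gene is 1057 bp longer for GAS5 and 383 bp longer for TUG1, at an end that was not determined. The counts and distances may therefore depend on the start used. The RNase A and digest A lists come from separate libraries, so an effect of RNase A and a difference between libraries cannot be told apart.

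**Figure D3:**
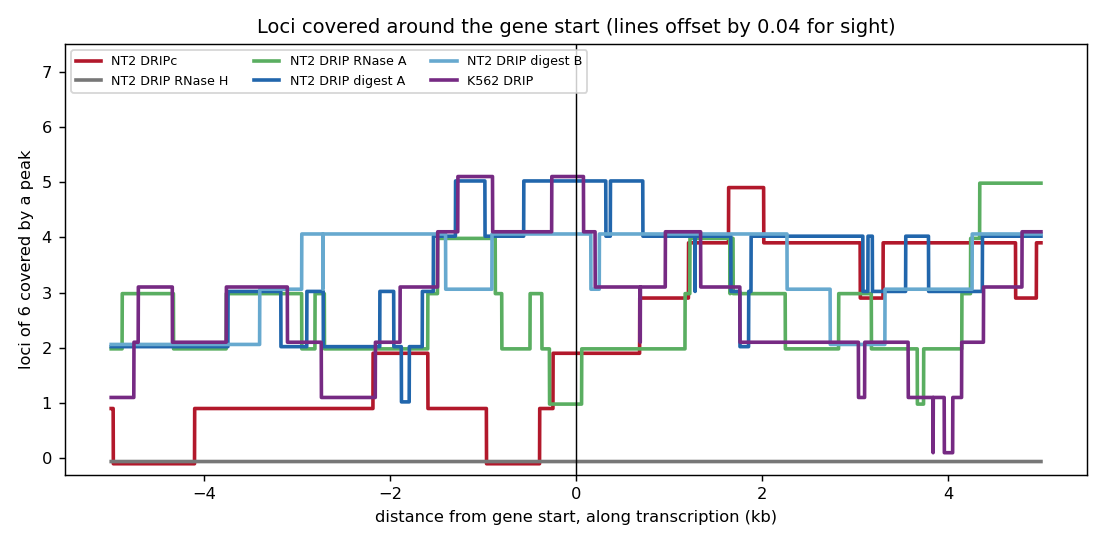
Number of the 6 genes covered by a peak (vertical axis) at each distance from the gene start in kb along transcription (horizontal axis), 1 line per list, drawn with small vertical offsets. At the start itself digest A and K562 cover 5 genes, digest B 4, DRIPc-seq 2, RNase A 1 and RNase H 0.

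SNHG1, the host of 9 snoRNA genes, had few listed peaks inside the gene. No DRIPc, RNase H, digest B or K562 peak touched it. With RNase A, 1 peak of 592 bp lay inside, from 1.66 to 2.25 kb, and with digest A 1 peak of 1281 bp ran from 0.56 kb upstream of the start to 0.72 kb past it. That digest A peak touched no peak of any other human list. The lists instead shared the flank before the start, on the side of SLC3A2, a gene for an amino acid transporter subunit. In the 5 kb before the start, 50.2% was covered in DRIPc-seq, 84.0% with RNase A, 88.3% with digest A, 71.9% with digest B and 52.0% in K562. The DRIPc peak there measured 2509 bp and lay on the plus strand, opposite to SNHG1 and on the strand of SLC3A2. Past the end of SNHG1, a peak of 4531 bp was listed with RNase A, and a peak of 598 bp in K562 lay inside that stretch.

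GAS5, the host of 11 snoRNA genes, had DRIP peaks over its start in some lists and just past its end. A DRIPc peak lay across its end. The start lay under a peak of 2962 bp with digest A, 5684 bp with digest B and 1477 bp in K562, while DRIPc-seq, RNase H and RNase A had no peak over it. Inside the gene, RNase A left 1 peak of 483 bp, from 1.17 to 1.65 kb. K562 had a further piece of 380 bp in the gene and DRIPc-seq one of 378 bp on the gene strand. A peak just past the end of the gene was listed in 4 DRIP lists. It ran from 4.34 to 6.97 kb with RNase A, 4.37 to 7.03 kb with digest A, 4.26 to 7.60 kb with digest B and 4.38 to 7.03 kb in K562. On the gene strand, a DRIPc peak of 1917 bp ran across the end of the gene, from 3.30 to 5.22 kb. A DRIPc peak of 842 bp on the other strand lay from 4.87 to 5.71 kb, past the end of the gene. The RefSeq table lists an antisense gene, GAS5-AS1, next to that end, and whether the peak lies in it was not determined. A further segment, upstream of the start and on the side of ZBTB37, was listed from 3.76 to 2.71 kb before the start with RNase A, 3.74 to 2.72 kb with digest A and 3.76 to 2.74 kb in K562.

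SNHG5, the shortest member and host of 2 snoRNA genes, had DRIP peaks before its start and a DRIPc peak at its end. The DRIP peak at the start ran from 2.81 to 0.37 kb upstream with RNase A, without reaching the gene. It ran from 2.90 kb upstream to 0.32 kb past the start with digest A, from 0.91 kb upstream to 0.16 kb with digest B and from 2.16 kb upstream to 0.08 kb in K562. The stretch in all 4 lists measured 0.54 kb and lay wholly upstream, between 0.90 and 0.37 kb before the start. DRIPc-seq had no peak there. The DRIPc peak of the gene strand measured 1847 bp and ran from 1.21 to 3.06 kb, over the last 0.52 kb of the gene and beyond. Digest A had a peak there too, from 1.88 to 3.79 kb, and RNase A one from 2.82 to 5.75 kb, whereas digest B and K562 had none that touched the DRIPc peak.

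DRIPc-seq placed most of the hybrid length of these genes on the strand of the gene. Of 20 DRIPc peaks in the windows, 13 lay on the gene strand and 7 on the other strand, with 38.2 and 10.07 kb. The gene strand had 79.1% of the summed length in the windows and 86.2% within the genes. By gene, it had 7.61 against 0.79 kb in MALAT1, 16.5 against 4.46 kb in NEAT1, 9.92 against 1.45 kb in TUG1, 2.29 against 0.84 kb in GAS5 and 1.85 against 0.02 kb in SNHG5. SNHG1 was the exception, with 0 against 2.51 kb. MALAT1, NEAT1 and TUG1 thus made up most of the summed length. The share on the gene strand was not computed for other genes. Peaks of opposite strands often met: 10 of the 20 peaks touched a peak of the other strand, against 9.70% of all DRIPc peaks. These 10 lay in the windows of MALAT1, NEAT1, TUG1 and GAS5. At GAS5 the strands met past the end of the gene, and a pair at NEAT1 lay upstream of its start.

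**Figure D4:**
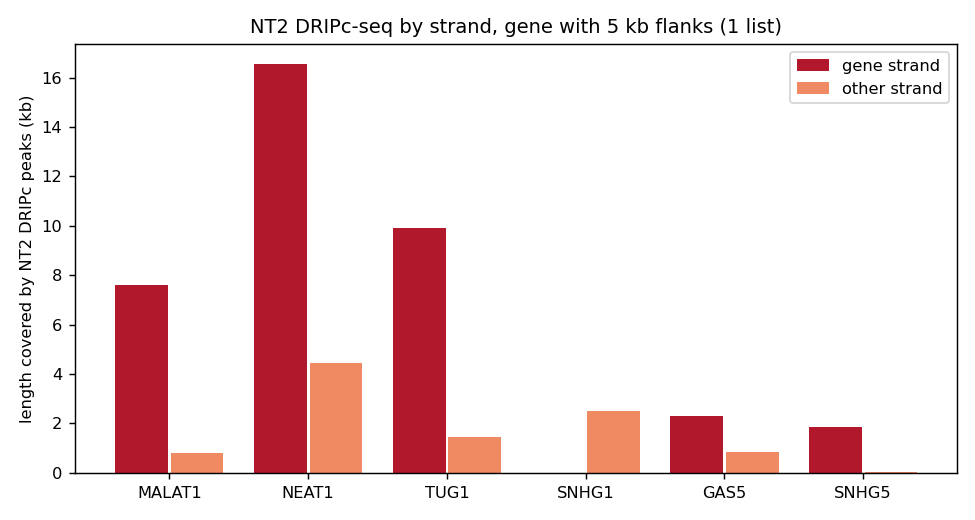
Length in kb under NT2 DRIPc peaks on the gene strand and on the other strand, in each gene with 5 kb flanks; 1 list, so no error bars. The gene strand leads in 5 genes, and in SNHG1 the 2.51 kb on the other strand stand alone.

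DRIPc cover at these genes lay under DRIP peaks to a larger share than over the whole DRIPc list, and the reverse shares differed less. Of the length under DRIPc peaks in the windows, 55.5% was also covered with RNase A, 78.2% with digest A, 73.0% with digest B and 58.8% in K562. Over the whole DRIPc list the shares were 27.8%, 31.1%, 47.3% and 20.7%. After RNase H the share was 3.81% in the windows, all in TUG1, and 1.17% over the list. Taken the other way, DRIPc peaks lay over 46.5% of the RNase A length in the windows, against 41.5% over the whole RNase A list. For digest A the share was 58.1%, against 51.3%, for digest B 58.2%, against 54.3%, and for K562 48.8%, against 39.1%. The largest DRIPc cover without any DRIP peak was 3018 bp in NEAT1, followed by 2139 bp in TUG1, and MALAT1 and SNHG1 had 0 bp. These lengths were counted against RNase A, digest A, digest B and K562, and not against RNase H.

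Peak by peak, 17 or 18 of the 21 digest A peaks in the windows were found in each other human list except that of RNase H, where 1 was found. In DRIPc-seq, 17 were touched by a peak (81.0%, exact Clopper-Pearson 95% interval 58.1 to 94.6%), against 61.4% of all digest A peaks. After RNase H, 1 was found (4.76%, 0.120 to 23.8%), against 5.09% of all. After RNase A, 17 were found (81.0%, 58.1 to 94.6%), against 65.5% of all. With digest B, 18 were found (85.7%, 63.7 to 97.0%), against 76.8% of all. In these 4 comparisons the share over the whole list lay within the interval of the members. In K562, 18 were found (85.7%, 63.7 to 97.0%), against 54.7% of all, a share below the interval. The intervals cover counting error only, peaks of 1 gene are not independent, and the members are longer than the list, which was not adjusted for.

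The NT2 and K562 maps differed in extent more than in presence. Of the digest A length in the windows, 75.9% was also covered in K562, against 59.3% over the whole list. For digest B, also from NT2, the shares were 76.4% and 77.5%. At these genes K562 thus shared about as much of the digest A length as digest B did. The 3 digest A peaks without a K562 peak were the one over the SNHG1 start, the one past the end of SNHG5 and the 850 bp piece in TUG1. Of 23 K562 peaks, 18 (78.3%, 56.3 to 92.5%) were found with digest A and 67.3% of the whole K562 list. With RNase H, 0 were found, which allows a share of up to 13.0% by a limit of 3 counts and 14.8% by the exact interval, against 5.86% of the list. In DRIPc-seq 14 were found (60.9%, 38.5 to 80.3%), against 50.4% of the list. With RNase A 17 were found (73.9%, 51.6 to 89.8%), against 63.0%, and with digest B 18, against 66.0%. The K562 members thus had no share whose interval left out that of the list. The 2 K562 peaks found in no NT2 list lay past the ends of GAS5 and SNHG5 and measured 854 and 567 bp. For NT2 against K562, a difference between the cell lines and one between libraries cannot be told apart.

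The other lists gave like counts when their own member peaks were looked up. Of 20 DRIPc peaks, 1 was found with RNase H (exact 95% interval 0.127 to 24.9%), against 2.60% of all DRIPc peaks, and this was the long TUG1 peak. With RNase A 17 were found (85.0%, 62.1 to 96.8%), against 39.8%, and with digest A 16 (80.0%, 56.3 to 94.3%), against 45.6%. With digest B 15 were found (75.0%, 50.9 to 91.3%), against 54.5%, and in K562 14 (70.0%, 45.7 to 88.1%), against 32.0%. With RNase A, with digest A and in K562, the intervals of the DRIPc members lay above the shares of the list. Of the 20 DRIPc peaks, however, 10 lay in the NEAT1 window, and peaks of 1 gene are not independent. The intervals cover counting error only, so no conclusion about these genes is drawn from them. This limit holds for the intervals of the other lists too. The 3 DRIPc peaks found in no DRIP list were those of the NEAT1 middle.

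Of 19 RNase A peaks, 13 were found in DRIPc-seq (68.4%, 43.4 to 87.4%), against 53.3% of all RNase A peaks. With RNase H 0 were found, which allows a share of up to 15.8% by a limit of 3 counts and 17.6% by the exact interval, against 8.66%. With digest A 16 were found (84.2%, 60.4 to 96.6%), against 65.7%, with digest B 15 (78.9%, 54.4 to 93.9%), against 64.8%, and in K562 18 (94.7%, 74.0 to 99.9%), against 52.4%. The 1 RNase A peak not found in K562 was the 592 bp piece inside SNHG1, which no other list held. Of 12 digest B peaks, 11 were found in DRIPc-seq (91.7%, 61.5 to 99.8%), against 69.7% of all digest B peaks, and the exception was the SNHG5 start. With RNase H 0 were found, which allows a share of up to 25.0% by a limit of 3 counts and 26.5% by the exact interval, against 4.82%. With RNase A 11 were found, against 60.3%, and the exception was the second TUG1 peak. With digest A 12 were found (100%, 73.5 to 100%), against 70.9%, and in K562 12 as well, against 50.4%.

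Edges of digest A member peaks were met by edges of RNase A and K562 peaks more often than by those of digest B peaks. The same order held over the whole digest A list. The RNase A and K562 lists share mix A with digest A, and the part of the enzymes was not tested. Of 34 edges of digest A member peaks that touched an RNase A peak, 8 lay within 50 bp of a like edge, against 15.1% of such edges over the whole list. For K562 the count was 9 of 36, against 13.4%. For digest B it was 1 of 36, against 2.74%, and for DRIPc-seq 1 of 34, against 3.72%. No genome of this build was used, so restriction sites were not located.

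In the mouse, the Malat1 and Neat1 region spans 49.8 kb (mm9 chr19:5795690-5845478), with the start of Neat1 at the high end and Malat1 at the low end, both transcribed toward lower positions. Peaks stood at both ends in all 3 lists. With the 5 kb flanks, 25.8% of the window was covered in E14 DRIP-seq, 20.3% in 3T3 DRIPc-seq and 54.3% in 3T3 DRIP-seq. Of 44150 mouse tiles of the same width, 6.29% were covered at least as much in E14, 5.71% in 3T3 DRIPc-seq and 1.39% in 3T3 DRIP-seq. A peak of any length was found in 37.1% of tiles in E14, 24.0% in 3T3 DRIPc-seq and 25.3% in 3T3 DRIP-seq.

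**Figure D5:**
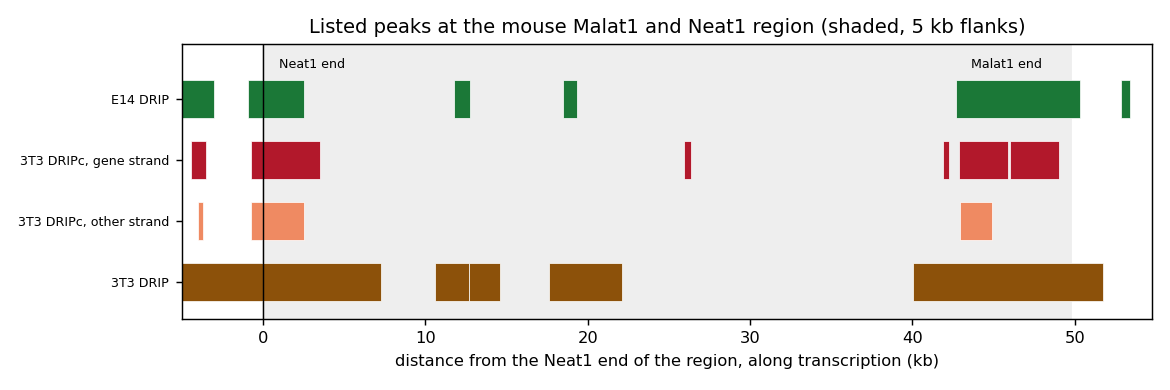
Peaks at the mouse Malat1 and Neat1 region by list, with the distance in kb from the Neat1 end along transcription on the horizontal axis; the region is shaded and 5 kb flanks are shown. E14 and 3T3 both have long peaks at the 2 ends, and 3T3 DRIP-seq has more cover between them.

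At the Malat1 end, 1 long peak stood in each DRIP list. It measured 7620 bp in E14 and 11690 bp in 3T3, and 3.66% of E14 peaks and 3.87% of 3T3 peaks were as long or longer. In 3T3 DRIPc-seq, peaks of 3020 and 3050 bp on the gene strand lay under it, and a peak of 2010 bp on the other strand lay within the second of these. NT2 and 3T3 DRIPc-seq both listed the 2 strands at this gene, with the shorter length on the other strand.

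At the Neat1 start, the peak ran from 0.94 kb upstream to 2.52 kb past the start in E14, and from 7.25 kb upstream to 7.28 kb past it in 3T3. In 3T3 DRIPc-seq a peak of 4290 bp on the gene strand and one of 3260 bp on the other strand both covered the start. Over all mouse tiles, the covered share of bases was 4.91% in E14, 3.27% in 3T3 DRIPc-seq and 4.64% in 3T3 DRIP-seq. All of the 5.60 kb on the other strand in the mouse window lay under peaks of the gene strand. In the 17000 bp that follow the first 5 kb of the region on the Neat1 side, 10.8% was covered in E14, 0% in 3T3 DRIPc-seq and 62.8% in 3T3 DRIP-seq. The E14 pieces there measured 868 and 961 bp, against 4496, 1934 and 2063 bp in 3T3, where the long peak of the start also reached into this stretch. The next 17789 bp, toward Malat1, had next to no cover, with 0% in E14, 2.30% in 3T3 DRIPc-seq and 0.551% in 3T3 DRIP-seq. The limits of these parts were chosen after the peaks were seen, and a difference between E14 and 3T3 cannot be told apart from one between libraries.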

How the data were processed

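The series has 13 samples and 9 peak lists (6 human, 3 mouse), grouped by cell line, assay, enzyme mix and RNase, per the labels. NT2 DRIPc-seq has 1 list for 2 samples, and 3 samples (NT2 RNA-seq and MethylC-seq) did not enter. Tools named in the submitters' processing notes, without their roles, are TopHat2 2.0.5, Bismark 0.7.7 and BWA 0.6.1, with builds hg19 and mm9. For the peak caller, its threshold and any control, nothing is stated in these sources. The authors deposited start and end in bp without height, so depth is unknown and a missing peak is a region not called. The strand is from a column in NT2 DRIPc-seq and from track lines in 3T3 DRIPc-seq.

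Members were peaks with at least 1 bp in a gene or its 5 kb flanks. All members were named by rule. Covered length was taken from merged peaks and set beside full tiles of the genome, each chromosome ending at the last human or mouse peak. No p-value was computed, because each group has 1 list. Gene strands came from the RefSeq table on GRCh38.p14, and those of NEAT1 and the mouse genes from textbook knowledge. Alternatives left out the flank, used a 1 kb flank, required 50% overlap, kept the longer 50% of peaks, joined peaks up to 1 kb apart or replaced digest A by digest B. Members and lists were chosen with earlier results of these data known. Overlap functions were tested on simulated lists, and counts equalled those of bedtools 2.31.1 in 5 of 5 comparisons. Scripts ran in Python 3.11.15 with scipy 1.17.1, numpy 2.4.6, matplotlib 3.10.9 and pandas 2.3.3. Other snoRNA hosts and long noncoding RNA genes were not analysed here, since no hg19 annotation was used.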

Additional observations from a re-analysis of the deposited data

How the results depend on the processing

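Of 52 recalculations of the main counts and shares, 7 moved past their tolerance. This was 1.5 times for counts and the exact 95% interval of the reported share for shares. For the share of DRIPc length by strand, rounded kb were taken as the counts of the interval. As these intervals are wide, a value inside one may still differ much: with peaks within 1 kb merged, the RNase H list touched 8.33% of the digest A peaks, in place of 4.76%. The counts of human windows with a peak stayed within 1.5 times under all 4 alternatives tried for them, and the share of DRIPc length on the gene strand, 79.1%, was 86.2% without flanks and 85.0% with the longer 50% of peaks. The covered share of the human windows was not among the 52. Without flanks, it was 66.9% in place of 37.3% in DRIPc-seq and 59.0% in place of 46.9% with digest B. Both lay past a like interval on rounded kb, and the other human lists stayed within theirs. With the longer 50% of peaks, 0% of the 16 digest A peaks left touched an RNase H peak, which allows up to 18.8%, since the TUG1 piece of 850 bp is not among them. With the same choice, the mouse region held 3 peaks in E14, 5 in 3T3 DRIPc-seq and 3 in 3T3 DRIP-seq. With digest B in place of digest A, 0% of 12 peaks were found after RNase H, which allows up to 25.0%. Of the same 12, 100% were found in digest A and 100% in K562; the cause was not tested. No paired analysis was possible because each group has 1 list and the 2 numbered NT2 DRIPc-seq samples share theirs. The number of peaks, 12 to 23 in the human DRIP lists other than RNase H, limits every share.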

Other observations

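Some neighbouring member peaks are parted by a gap of a single base, so the number of peaks is not the number of separate hybrids. Such gaps were found between 1 of 9 neighbouring pairs in NT2 DRIPc-seq, 0 of 13 with RNase A, 2 of 15 with digest A, 1 of 6 with digest B and 2 of 17 in K562. Over the whole lists they made up 8.33% of pairs in NT2 DRIPc-seq, 5.51% with RNase A, 5.66% with digest A, 9.50% with digest B and 5.06% in K562.

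The RNase H list had its nearest peak 8.18 kb from MALAT1, 22.05 kb from NEAT1 and 10.19 kb from SNHG1, while the nearest to GAS5 lay 948.79 kb away and the nearest to SNHG5 1278.58 kb away.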
